A study of Homo sapiens with 7 samples.

Results

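The genes of sterol and fatty acid synthesis that are known targets or regulators of the sterol regulatory element-binding proteins (SREBPs) were followed in H4, an established line of human neuroglioma cells, during activation of a light-controlled stress kinase. Members were chosen by name from 34 symbols, 2 of which are older names of other members, and each was read in the gene tables by its symbol. SC5D was found there under its older name SC5DL and MSMO1 under its current name. The result was 32 genes of the 18817 listed in any library: 18 enzymes of sterol synthesis, 8 enzymes of fatty acid synthesis, 5 regulators (SREBF1, SREBF2, SCAP, INSIG1 and INSIG2) and the sterol carrier STARD4. All 32 passed the filter of at least 10 counts in at least 3 libraries.

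All cells carried opto-PKR, which joins the light-clustering plant protein Cry2Olig to PKR (gene EIF2AK2), a kinase of the initiation factor eIF2 that sets off the integrated stress response. Cells on fibronectin in glass-bottom wells stood under unbroken blue light for 0, 60, 120, 240, 480, 600 and 720 min and were lysed at once, and the 0 min library is the unlit one. There was 1 library per time, so no value has a replicate. Cultures left dark for as long, and lit cells that lack opto-PKR, were not analysed here, so the effects of light, kinase and time in the plate cannot be told apart. The sources used here do not say whether the opto-PKR cells are 1 clone.

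SREBPs are transcription factors made as precursors in the membrane of the endoplasmic reticulum. SCAP escorts the precursor to the Golgi, where proteases release the active part, and INSIG proteins hold SCAP back when sterols are plentiful. SREBP-2 (gene SREBF2) acts mainly on sterol synthesis and SREBP-1 (gene SREBF1) mainly on fatty acid synthesis, and INSIG1 is itself a target gene. Glial cells make much of their own cholesterol and long-chain fatty acids.

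The 6 complete libraries held 7048253 to 8911818 transcripts. The 480 min table, in alphabetical order, ends with NME1-NME2 and held 5266123, so 10 of the 32 genes (among them SCD, SQLE, SCAP, SREBF1 and SREBF2) are missing there and were fitted on 6 libraries. Levels are CPM, a gene's counts scaled to the effective size of its library. The stress response markers ATF4, TRIB3 and ASNS rose over the course, and HSPA5, a chaperone of the endoplasmic reticulum, was not called (log2 trend 0.73 ± 0.31 SE, edgeR adjusted p = 0.194). Of the line's glial and mesenchymal markers, VIM (682 to 886 CPM) and CD44 (495 to 703 CPM) were abundant and SOX2, SOX9 and OLIG2 were detected. In contrast, GFAP and S100B had no counts and NES had only 2 to 14 counts per library. Markers of blood (PTPRC), endothelium (PECAM1, VWF), liver (ALB) and epithelium (EPCAM, CDH1) had 7 counts or fewer in every library, and the keratins KRT8 and KRT18 and the lysosomal gene CD68 were detected.

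Most of the pathway stood below its unlit level at the later times. Of the 32 genes, 19 had their highest level at 0 min, 15 their lowest at 720 min and 9 their lowest at 240 min. The shares of all genes with extremes at these times were not counted, so these numbers are description only. The median log2 ratio of the sterol enzymes to 0 min was -0.17, -0.33, -0.61, -0.48 (13 enzymes listed), -0.77 and -0.77 at 60, 120, 240, 480, 600 and 720 min. The medians of the fatty acid enzymes were -0.30, -0.33, -0.62, -0.25 (7 listed), -0.38 and -0.39 at the same times. Their value at 240 min depends on SCD, which is missing at 480 min: over the 7 enzymes listed in every library the medians were -0.23, -0.24, -0.38, -0.25, -0.37 and -0.27, and over the 13 such sterol enzymes the 240 min median was -0.61. The medians of the regulators were 0.02, -0.28, -0.20, -0.87 (2 listed), -0.23 and -0.33. Over all genes compared, the median lay between -0.03 and 0.02 at each of these times.

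**Figure D1:**
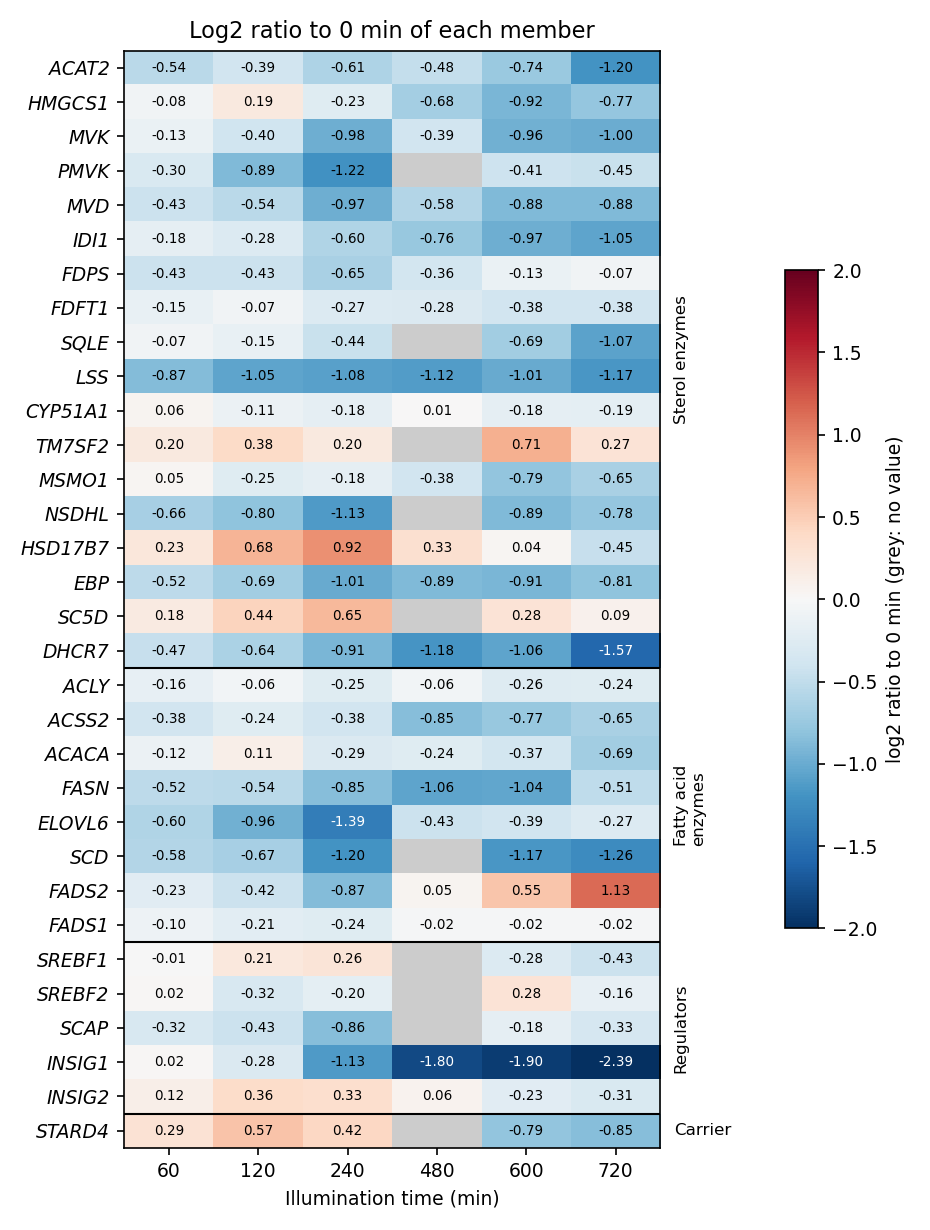
Log2 ratio of each of the 32 genes (vertical, by role) to the 0 min library at each illumination time (horizontal), with a colour scale centred on 0 that ends at 2 either way and grey cells for genes missing from the 480 min table. Most cells are on the lower side, and INSIG1 is lowest at 720 min (-2.39). SC5D, HSD17B7, INSIG2 and STARD4 are higher at 120 and 240 min, and so are TM7SF2 and SREBF1, within counting error.

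Because each ratio compares a pair of libraries, only counting error could be attached to it. At 60 min 13 of the 32 genes had a 95% interval wholly below 0, against 26.2% of the genes compared, and 2 had one wholly above 0, against 25.1%. At 240 min 21 lay below (36.8% of the genes compared) and 4 above (38.3%). At 720 min 22 lay below (30.7%) and 1 above (31.2%). The genes compared had at least 50 counts in either library. The 1 above at 720 min, FADS2, did not reach this (49 counts, and 24 at 0 min). The 32 genes were thus on the lower side more often than the background at the later times. The background shows that an interval clear of 0 is common between each of these lit libraries and the unlit one. At 720 min 7 genes were at least 2-fold lower (ACAT2, IDI1, SQLE, LSS, DHCR7, SCD and INSIG1), against 4.43% of the genes compared. These are bulk measurements, in which fewer cells that express a gene and less RNA per cell cannot be told apart. CPM is also a share of its library, so a lower CPM can go with more RNA of other genes, which was not tested.

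A change over the whole course was tested with a straight line in minutes across all 13566 genes that passed the filter (the trend, the log2 change fitted between 0 and 720 min), and with a curve added to it (the bend, the fitted log2 level at 360 min minus the mean of those at 0 and 720 min). At an adjusted p under 0.05, 6 of the 32 genes fell and 0 rose, against a background of 2.96% of all genes falling and 3.90% rising. Those that fell were INSIG1 and 5 sterol enzymes, IDI1, HMGCS1, DHCR7, SQLE and MSMO1. At an unadjusted p under 0.05, 15 of the 32 had a trend, against 23.1% of all genes. The number called was 1 to 7 when each library was left out in turn, and the share of all genes called, 6.86% with all libraries, moved with it. Leaving out 60 min gave 2 (2.09% of all genes), 120 min 2 (2.62%), 480 min 3 (4.65%), 600 min 1 (1%) and 720 min 3 (3.49%). Without 240 min 7 were called (8.51%), and 7 without 0 min (11%), of which that of FADS2 was upward. By DESeq2 9 were called, against 11.6% of all genes. The median trend was -0.63 over the 18 sterol enzymes, -0.35 over the 8 fatty acid enzymes and -0.48 over the 5 regulators, beside -0.02 over all genes tested.

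Another 9 genes were called in the bend, 7 downward (background 13.7%) and 2 upward (background 17.5%), and 0 genes were called in both trend and bend. The downward bends belonged to the sterol enzymes PMVK, FDPS, NSDHL and EBP and the fatty acid enzymes FASN, SCD and FADS2, and the upward bends to HSD17B7 and SC5D. Since 31.2% of all genes tested had a bend, the share of these genes with one is near the background. Without the 0 min library 2 bends were called and without the 240 min library 1, and the share of all genes with a called bend went down in the same fits, to 14.4% and 9.81%. The median bend was -0.51 over the fatty acid enzymes, -0.12 over the sterol enzymes and 0.01 over all genes tested.

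**Figure D2:**
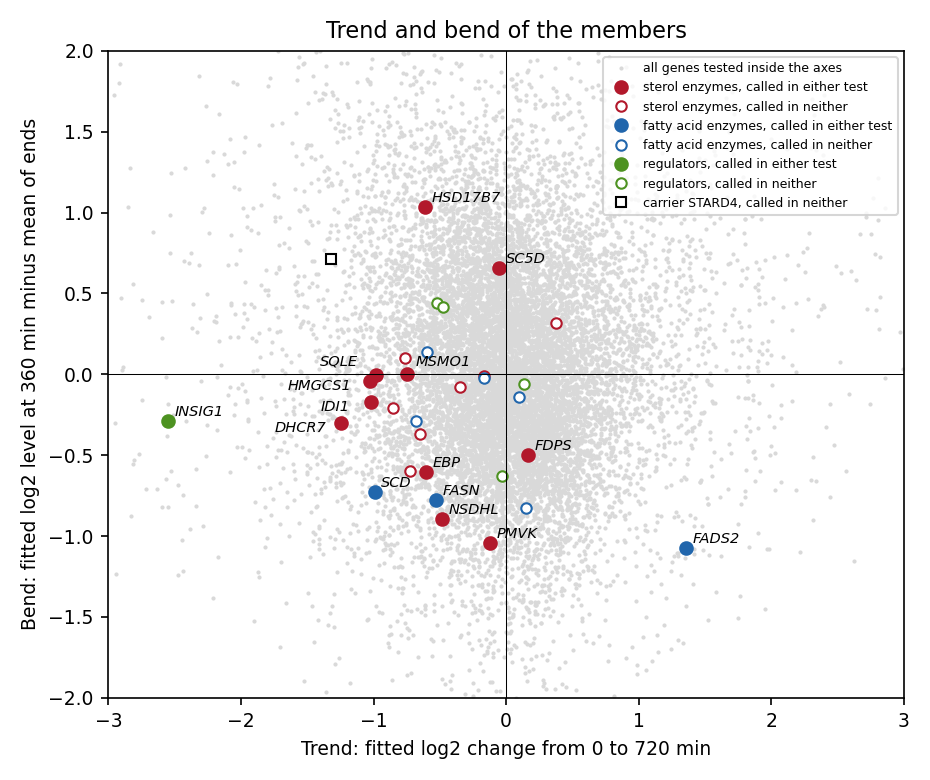
Fitted trend (horizontal, log2 change from 0 to 720 min) against fitted bend (vertical, log2) for the 32 genes, coloured by role, with filled marks for genes called in either test and, in grey, all genes tested that lie inside the axes. Among the 32, INSIG1 lies farthest left at -2.55, and FADS2 is the member with the highest trend, 1.35, which was not called.

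Among the regulators, INSIG1, the sterol-sensing retention protein, fell furthest. Its level was 30.1, 30.6, 24.7, 13.7, 8.49, 7.92 and 5.55 CPM at 0, 60, 120, 240, 480, 600 and 720 min, with 256 counts in the first library and 42 in the last. It was level between the first pair of times and lower at each time after that. The trend was -2.55 ± 0.26 (SE, edgeR adjusted p = 0.0017), and 0.509% of the genes tested had a lower one. The call held under every alternative scaling, filter, count and time scale tried and without any 1 library, with trends of -2.45 to -2.75 and adjusted p up to 0.0154. At 720 min INSIG1 was at 0.184 of its unlit level (95% counting interval 0.13 to 0.256).

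INSIG2, its paralog with the same retention role, did not pass either test. It stood at 22.1, 24.0, 28.5, 27.9, 23.1, 18.8 and 17.8 CPM over the same times (trend -0.47 ± 0.25, adjusted p = 0.296; bend 0.41 ± 0.19, adjusted p = 0.119). It was thus highest at 120 and 240 min, when INSIG1 was going down; with time on a log scale its bend was called (adjusted p = 0.0433). INSIG1 made up 57.7% of the counts of both genes at 0 min (exact 95% interval 52.9 to 62.3), and 56.0, 46.4, 32.9, 26.8, 29.6 and 23.7% (17.7 to 30.7 for the last) at the following times. The share therefore passed from INSIG1 to INSIG2 between 60 and 240 min. Counts come from the 3' end of each transcript, so gene length does not enter this comparison.

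**Figure D3:**
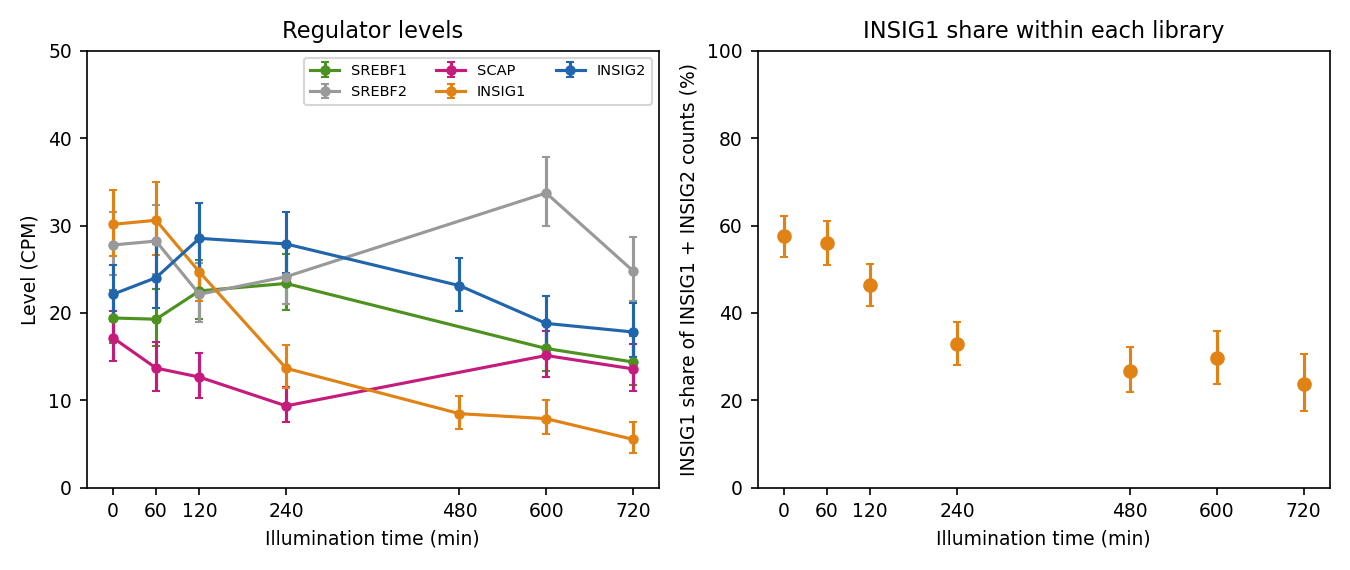
Levels in CPM (vertical) of SREBF1, SREBF2, SCAP, INSIG1 and INSIG2 at each illumination time in min (horizontal), and the INSIG1 share of INSIG1 and INSIG2 counts in percent, both with 95% counting intervals. INSIG1 goes from 30.1 to 5.55 CPM while the other 4 stay between 9.38 and 33.7 CPM, and its share goes from 57.7% to 23.7%.

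The genes of the SREBPs themselves showed no called change. SREBF1 was at 19.4, 19.3, 22.5, 23.4, 15.9 and 14.4 CPM at 0, 60, 120, 240, 600 and 720 min (trend -0.52 ± 0.27, adjusted p = 0.299). SREBF2 was at 27.8, 28.2, 22.1, 24.2, 33.7 and 24.8 CPM (trend 0.14 ± 0.27, adjusted p = 0.815). Neither moved by as much as 2-fold at any time. SREBF1 made up 41.2% of the counts of both at 0 min (interval 36.3 to 46.1), 50.4% at 120 min (45.1 to 55.8) and 32.1% at 600 min (27.7 to 36.7). The escort SCAP stood at 17.2, 13.7, 12.7, 9.38, 15.1 and 13.6 CPM, lowest at 240 min, and its bend of -0.63 ± 0.30 was not called (adjusted p = 0.125). That bend passed without the 600 min library (-0.82, adjusted p = 0.0385) and without the 720 min library (-1.13, adjusted p = 0.0287).

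The early enzymes of sterol synthesis build mevalonate and turn it into the isoprenoid units. HMGCS1, the cytosolic HMG-CoA synthase, was at 57.8, 54.8, 66.0, 49.1, 36.1, 30.5 and 33.8 CPM at 0, 60, 120, 240, 480, 600 and 720 min. It was highest at 120 min and lower from 480 min on, and the trend was -1.03 ± 0.22 (adjusted p = 0.0247). IDI1, the isomerase of isopentenyl diphosphate, went down at every step, through 106, 93.6, 87.8, 70.1, 62.6, 54.3 and 51.1 CPM, with a trend of -1.02 ± 0.17 (adjusted p = 0.0105). The IDI1 call was lost only without the 600 min library (adjusted p = 0.0762). The HMGCS1 call was lost without 60 min (adjusted p = 0.0791), 120 min (0.0675), 480 min (0.054) or 600 min (0.14), and on the log (0.0612) and rank (0.0613) time scales. ACAT2, which makes acetoacetyl-CoA, went between 59.6 CPM in the unlit library and 25.8 CPM in the last, and its trend of -0.76 ± 0.25 was not called (adjusted p = 0.103).

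Of the next steps, PMVK and FDPS bent downward. PMVK, phosphomevalonate kinase, stood at 52.3, 42.5, 28.2, 22.4, 39.3 and 38.3 CPM at 0, 60, 120, 240, 600 and 720 min. It was lowest at 240 min and partly back at 600 min, a bend of -1.04 ± 0.28 (adjusted p = 0.0151). MVK, mevalonate kinase, ranged from 5.02 CPM, in the last library, to 10.2 CPM in the first, and MVD, the decarboxylase, from 9.93 to 19.7 CPM; neither was called in the trend (adjusted p = 0.163 and 0.207) or the bend (0.639 and 0.278). FDPS, farnesyl diphosphate synthase and the most abundant sterol enzyme by count, was at 253, 187, 187, 161, 196, 231 and 241 CPM at 0, 60, 120, 240, 480, 600 and 720 min, with a bend of -0.50 ± 0.16 (adjusted p = 0.0323). Its 720 min level was therefore close to its unlit level. FDPS has near-identical copies in the genome, and part of its reads were shared with other genes, so its level is uncertain; the listed copy FDPSL2A had 106, 45 and 91 counts at 0, 120 and 720 min. The PMVK bend was -0.87 (adjusted p = 0.11), -0.69 (0.259) and -1.66 (0.00104) when 0, 240 or 720 min was left out. The FDPS bend was -0.30 (0.236), -0.48 (0.0596), -0.39 (0.158) and -0.82 (0.00945) in fits that left out 0, 120, 240 or 720 min.

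From squalene on, the enzymes divided again. SQLE, squalene epoxidase, a rate-limiting oxygenase of the pathway, stood at 35.8, 34.1, 32.1, 26.4, 22.0 and 16.9 CPM at 0, 60, 120, 240, 600 and 720 min, lower at each step, with a trend of -0.98 ± 0.23 (adjusted p = 0.0387). FDFT1, squalene synthase, just before it, ranged only from 57.3 to 74.6 CPM (trend -0.35 ± 0.17, adjusted p = 0.245). LSS, lanosterol synthase, just after it, was lower from 60 min on and then level. It was at 43.3 and 23.6 CPM at 0 and 60 min and between 19.2 and 21.5 CPM at the 5 later times. Its log2 ratio was -0.87 already at 60 min (counting interval -1.15 to -0.61), the lowest of the 32 genes at that time, and a step of this form was called neither as a trend (adjusted p = 0.223) nor as a bend (adjusted p = 0.098). The SQLE call was lost without 60 min (adjusted p = 0.135), 120 min (0.112), 600 min (0.145) or 720 min (0.213), and on the log (0.066) and rank (0.0515) time scales.

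The enzymes that turn lanosterol into cholesterol include both falling and bending genes. MSMO1, which removes the methyl groups at carbon 4, was at 64.0, 66.1, 53.9, 56.7, 49.2, 36.8 and 40.7 CPM at 0, 60, 120, 240, 480, 600 and 720 min, with a trend of -0.75 ± 0.19 (adjusted p = 0.0495) that lay just inside the threshold. DHCR7, a reductase of the final steps, was at 23.7, 17.1, 15.1, 12.5, 10.3, 11.2 and 7.79 CPM, a trend of -1.25 ± 0.26 (adjusted p = 0.0251). It was the sterol enzyme with the lowest trend. The MSMO1 call was lost without any 1 library, with adjusted p from 0.0505 without 240 min to 0.226 without 600 min. It was also lost without the count filter (0.0663) and on the log (0.0781) and rank (0.0656) time scales. The DHCR7 call was lost without 60 min (0.0739), 120 min (0.0562), 480 min (0.0562), 600 min (0.0749) or 720 min (0.1).

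NSDHL and EBP bent downward. NSDHL, the dehydrogenase that acts with MSMO1, stood at 37.3, 23.5, 21.4, 16.9, 20.1 and 21.7 CPM at 0, 60, 120, 240, 600 and 720 min (bend -0.90 ± 0.25, adjusted p = 0.0166). EBP, the sterol isomerase, stood at 82.1, 57.3, 50.8, 40.7, 44.2, 43.6 and 46.8 CPM at 0, 60, 120, 240, 480, 600 and 720 min (bend -0.60 ± 0.18, adjusted p = 0.0243). Both were highest in the unlit library by a wide step and lowest at 240 min. Neither bend was called without 0 min (-0.54 and -0.39, adjusted p = 0.254 and 0.19) or without 240 min (-0.82 and -0.50, 0.18 and 0.135), and on the log time scale that of NSDHL was -0.58 (0.0249). CYP51A1, the lanosterol demethylase, kept to 74.2 to 88.8 CPM, and TM7SF2, a sterol reductase, to 8.59 to 14.2 CPM, neither called.

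HSD17B7 and SC5D moved the other way in the middle of the course. SC5D, the desaturase of the last steps, stood at 95.4, 108, 130, 150, 116 and 101 CPM at 0, 60, 120, 240, 600 and 720 min (bend 0.66 ± 0.17, adjusted p = 0.0119). HSD17B7, the keto-sterol reductase, stood at 11.3, 13.3, 18.3, 21.6, 14.2, 11.6 and 8.19 CPM at 0, 60, 120, 240, 480, 600 and 720 min (bend 1.03 ± 0.23, adjusted p = 0.00693). Each was highest at 240 min, when 9 other genes of the 32 were at their lowest, and at 720 min SC5D was near and HSD17B7 below its unlit level. HSD17B7 has a listed copy, HSD17B7P2, with 19, 95 and 16 counts at 0, 240 and 720 min, and reads were shared between genes, so which of the 2 rose is uncertain. SC5D also shared reads with other genes, in all 6 libraries that list it, so its level is uncertain too. Without 240 min the adjusted p was 0.0738 for HSD17B7 and 0.159 for SC5D, and without 0 min SC5D was at 0.082.

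**Figure D4:**
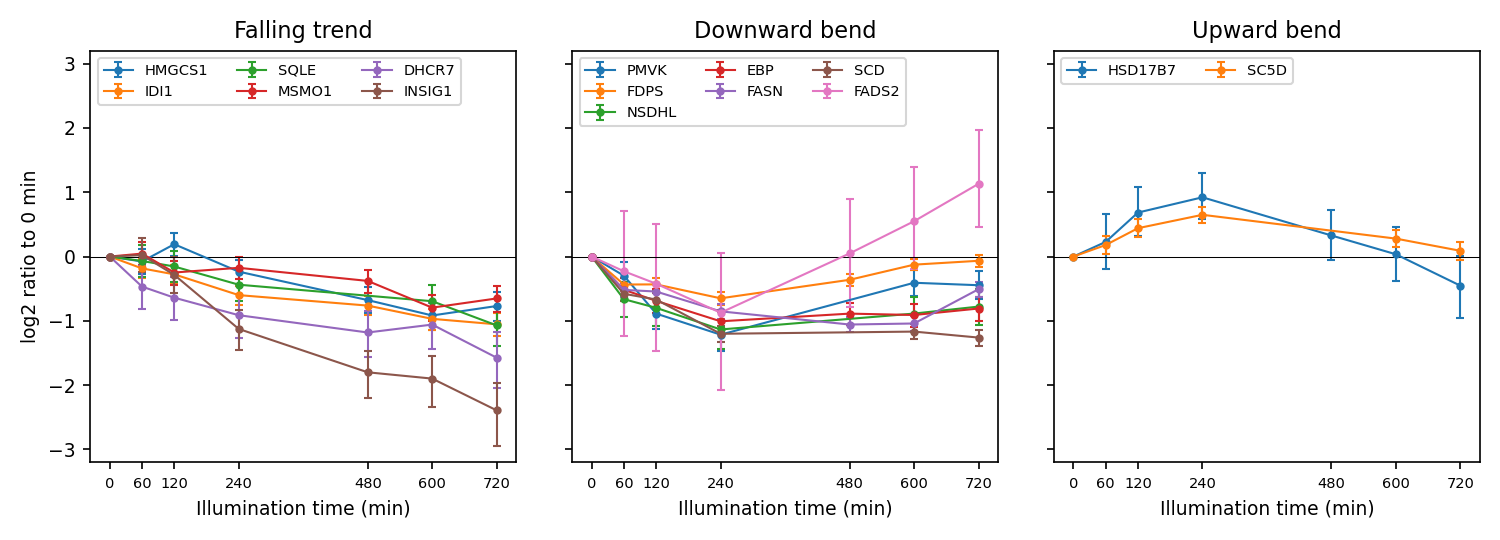
Levels relative to 0 min (vertical, log2 ratio) of genes with called trends and bends at each illumination time in min (horizontal), with 95% counting intervals. Genes that fell are lowest at 600 or 720 min, 5 of the 7 with a downward bend are lowest at 240 min (FASN at 480 min, SCD at 720 min), and HSD17B7 and SC5D are highest at 240 min.

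In fatty acid synthesis, acetyl-CoA is supplied by ACLY and ACSS2, carboxylated by ACACA, built into palmitate by FASN, elongated by ELOVL6 and desaturated by SCD, FADS1 and FADS2. None of the 8 had a called trend (6.86% of all genes did), 3 bent downward (13.7% of all genes did), and 4 had an unadjusted p under 0.05 in the trend (23.1% of all genes). With 8 genes, the lack of a called trend does not set this group apart from all genes. FASN was at 195, 136, 133, 108, 93.4, 94.5 and 137 CPM at 0, 60, 120, 240, 480, 600 and 720 min. It was thus low from 60 min, lowest at 480 and 600 min and higher again at 720 min, a bend of -0.77 ± 0.15 (adjusted p = 0.00344), the smallest adjusted p among the 32 bends. Leaving out the 720 min library took this bend to an adjusted p of 0.0505, and the log time scale took it to 0.104, with bends of -0.62 and -0.40.

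SCD, the stearoyl-CoA desaturase, was also low from 60 min and stayed low to the end. It stood at 216, 145, 136, 94.0, 96.2 and 90.2 CPM at 0, 60, 120, 240, 600 and 720 min (bend -0.73 ± 0.20, adjusted p = 0.0155; trend -0.99 ± 0.28, adjusted p = 0.0785). The trend was called without 240 min (adjusted p = 0.0257), with time on a log or rank scale (0.0206 and 0.0417) and by DESeq2 (0.0268), and the bend was lost without 0 min (-0.47, 0.218), without 240 min (-0.51, 0.263) and on the log time scale (-0.29, 0.134); on the rank scale it was -0.44 (0.0342). FADS2, the delta-6 desaturase, had few counts, 13 to 49. Its level was 2.83, 2.38, 2.05, 1.43, 2.93, 4.24 and 6.47 CPM at 0, 60, 120, 240, 480, 600 and 720 min, lowest at 240 min and above its unlit level at 720 min (ratio 2.29, counting interval 1.38 to 3.90). The bend was -1.07 ± 0.33 (adjusted p = 0.0281) and was lost without 0, 240 or 720 min (adjusted p = 0.13, 0.137 and 0.0564) and by DESeq2 (0.102). The upward trend of 1.35 ± 0.44 was not called (adjusted p = 0.106) except without 0 min (0.0436).

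The remaining fatty acid enzymes were not called. ELOVL6 stood at 23.2, 8.71 and 19.2 CPM at 0, 240 and 720 min, a bend of -0.83 ± 0.32 just outside the threshold (adjusted p = 0.0651). ACLY ranged from 105 to 126 CPM, FADS1 from 113 to 134 CPM, ACACA from 11.6 to 20.5 CPM and ACSS2 from 7.98 to 14.6 CPM. FADS1 and ACLY, both abundant, therefore kept within a narrow range while FASN and SCD did not. Summed over the 8 enzymes, the level was 730.5, 457 and 512 CPM at 0, 240 and 720 min. The sum over the 18 sterol enzymes was 1120, 848 and 810 CPM at those times. Of the counts of all 26 enzymes, the fatty acid enzymes held 39.5% at 0 min (38.7 to 40.2), 35.0% at 240 min (34.2 to 35.9) and 38.7% at 720 min (37.8 to 39.7), lowest at 240 min. This share turns on SCD: over the 7 and 13 enzymes listed in every library, which leave it out, it was 36.6, 36.8 and 40.4% at these times.

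STARD4, a soluble protein that carries cholesterol between membranes and is itself an SREBP target, had a course of its own. It stood at 32.1, 39.3, 48.0, 43.0, 18.5 and 17.7 CPM at 0, 60, 120, 240, 600 and 720 min. It was above its unlit level up to 240 min and below it from 600 min on. Both the trend (-1.32 ± 0.36, adjusted p = 0.0703) and the bend (0.72 ± 0.26, adjusted p = 0.0527) missed the threshold.

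The promoters of the genes that fell were read for the sites through which SREBPs and their partners are known to act. RefSeq promoters (GRCh38.p14) were matched for 28 of the 32 genes, 250 bases before to 50 after the start, and searched on both strands. The NF-Y box ATTGG, bound by a factor that works beside SREBPs, was in 21 of 28 (75.0%), against 39.7% of all genes in the table and 44.4% of the genes tested. By role it was in 13 of 15 sterol enzymes, 5 of 7 fatty acid enzymes and 2 of 5 regulators. The SP1 box GGGCGG was in 27 of 28 (96.4%), against 76.4% of the genes tested. The sterol regulatory element core TCACNCCAC was in 1 of 28, SREBF2, against 1.52% of the genes tested, and TGATGNAAN, the composite element of CHOP and ATF proteins, in 0 of 28, against 2.96%. A match is a description of letters and not a measured site. Likewise, absence of these exact letters from this window does not show that a gene lacks such a site. The 5 genes that fell and whose promoters were read all held the NF-Y box, and so did 16 of the other 23, among them the uncalled TM7SF2 and ACLY and the upward-bending SC5D and HSD17B7. The 200 bases before the start are shown for these 5 and for SREBF2, from 5′ to 3′ on the gene's strand, with NF-Y boxes (either strand) and the sterol element core in capitals.
INSIG1, chr7:155297678-155297877, plus strand: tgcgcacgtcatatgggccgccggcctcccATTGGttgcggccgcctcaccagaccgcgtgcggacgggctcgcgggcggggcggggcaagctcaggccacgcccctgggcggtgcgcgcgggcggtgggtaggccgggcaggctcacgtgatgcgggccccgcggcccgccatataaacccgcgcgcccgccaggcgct
IDI1, chr10:1048887-1049086, minus strand: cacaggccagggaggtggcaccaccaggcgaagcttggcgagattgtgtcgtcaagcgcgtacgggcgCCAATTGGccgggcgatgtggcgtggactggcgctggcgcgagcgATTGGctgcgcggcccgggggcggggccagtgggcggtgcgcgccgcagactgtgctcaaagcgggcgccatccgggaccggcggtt
HMGCS1, chr5:43313413-43313612, minus strand: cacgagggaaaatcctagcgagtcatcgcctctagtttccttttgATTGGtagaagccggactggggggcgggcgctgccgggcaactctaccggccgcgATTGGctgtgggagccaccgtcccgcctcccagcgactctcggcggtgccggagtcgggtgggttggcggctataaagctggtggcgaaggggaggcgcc
DHCR7, chr11:71448394-71448593, minus strand: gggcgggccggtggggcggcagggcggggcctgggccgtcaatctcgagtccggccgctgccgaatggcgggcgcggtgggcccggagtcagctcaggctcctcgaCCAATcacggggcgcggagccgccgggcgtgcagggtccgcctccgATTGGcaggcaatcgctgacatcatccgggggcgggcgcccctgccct
MSMO1, chr4:165327469-165327668, plus strand: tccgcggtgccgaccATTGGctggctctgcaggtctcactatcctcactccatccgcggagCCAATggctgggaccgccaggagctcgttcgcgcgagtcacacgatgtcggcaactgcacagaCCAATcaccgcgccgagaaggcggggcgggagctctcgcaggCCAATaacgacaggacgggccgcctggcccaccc
SREBF2, chr22:41832905-41833104, plus strand: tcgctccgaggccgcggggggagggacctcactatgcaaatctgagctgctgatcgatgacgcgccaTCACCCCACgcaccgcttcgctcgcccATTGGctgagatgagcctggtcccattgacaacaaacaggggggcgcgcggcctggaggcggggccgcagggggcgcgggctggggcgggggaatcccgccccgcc
INSIG1 shows 1 box, toward the far end of the stretch, and MSMO1 shows 4. IDI1 shows 3 (a pair of them overlapping as CCAATTGG, which reads the same on both strands), and HMGCS1 and DHCR7 show 2 each. IDI1 has 3 promoter entries in the table, and HMGCS1 and DHCR7 have 2 each; for each gene the first entry with a box in the stretch is shown.

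Genes around the pathway were read from further lists. Of 10 genes of SREBP processing and turnover, 0 had a called trend (6.86% of all genes did) and 3 bent upward, SEC24A, RNF139 and SEC23A. With 31.2% of all genes called in the bend, the number called is near the background. Upward bends were called in 17.5% of all genes, and 3 among 10 genes were not read as a result about the list. SEC24A, a coat protein of vesicles leaving the endoplasmic reticulum, had a bend of 1.08 ± 0.27 (adjusted p = 0.00924) with 215, 453 and 170 counts at 0, 240 and 720 min. RNF139, a ubiquitin ligase that acts on this system, had a bend of 0.66 ± 0.17 (adjusted p = 0.012). The protease MBTPS1 ranged from 67.0 to 114 CPM and MBTPS2 from 59.7 to 83.9 CPM, neither called. Of 18 tested lipid genes outside the 32, 1 fell (LPIN1), 0 rose, 2 bent upward (ACSL1 and MID1IP1) and 2 downward (SCD5 and SLC25A1). These counts, too, are near or below the background of 2.96% falling and 31.2% bending. SCD5, the other stearoyl-CoA desaturase of human cells, stood at 57.9, 21.7, 15.9 and 22.5 CPM at 0, 240, 600 and 720 min (bend -1.08 ± 0.22, adjusted p = 0.00352). Like SCD, SCD5 was below its unlit level from 60 min on. SCD5 was lowest at 600 min, however, whereas SCD was about level from 240 min on. MID1IP1, a partner of acetyl-CoA carboxylase, stood at 59.8, 220 and 119 CPM at 0, 240 and 720 min (bend 1.31 ± 0.28, adjusted p = 0.00888).

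Of 7 genes of sterol efflux and the liver X receptors, which respond to sterol excess, 1 rose and 1 fell. The background was 3.90% of all genes rising and 2.96% falling. In the bend 2 were called downward (13.7% of all genes) and 0 upward (17.5%). Counts this small in a list of 7 were not read as a result about the list. ABCG1, an efflux transporter, rose from 6 to 31 counts between the first and last library (trend 3.27 ± 0.45, adjusted p = 0.00495), at a low level of 0.28 to 4.10 CPM. The related transporter ABCA1 was at 10.1 and 16.3 CPM in the first and last library, and its trend of 1.18 ± 0.39 was not called (adjusted p = 0.109). Other uncalled trends went down: MYLIP (-0.82 ± 0.25, adjusted p = 0.0897), SMPDL3A (-1.14 ± 0.49, 0.215) and NR1H3 (-1.29 ± 0.56, 0.217, with 6 to 35 counts). In all, 4 of the 7 trends were below 0 and their median was -0.82. NR1H2, a liver X receptor, bent downward (-0.95 ± 0.18, adjusted p = 0.00249), with 128, 78.3 and 155 CPM at 0, 240 and 720 min. LPCAT3, a phospholipid-remodelling enzyme, fell (-1.02 ± 0.26, adjusted p = 0.0498) and also bent downward (-0.54 ± 0.19, adjusted p = 0.0486). Of 10 tested genes of sterol movement and storage, 1 fell, against 2.96% of all genes, and a single fall was not read as a result about the list. It was LIPA, the lysosomal lipase that frees cholesterol from its esters, which went from 97.1 to 34.2 CPM (trend -1.26 ± 0.27, adjusted p = 0.0274). OSBP bent upward (0.73 ± 0.21, adjusted p = 0.0204) and STARD3 downward. These bends, 1 each way among 10 genes, lie below the background of 17.5% upward and 13.7% downward.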

How the data were processed

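The data are 7 libraries of opto-PKR H4 cells, 1 per illumination time, made with an adaptation of CEL-Seq2, which counts transcript 3' ends with unique molecular identifiers (UMIs). Per library the authors deposited expected counts per gene (reads, UMIs, and transcripts, the UMI counts corrected for collisions among 4096 possible UMIs). BWA and the build hg19 are named per the submitters' processing notes; their versions, the annotation, the strand setting and the counting program were not given in the sources used here, which name primer 4. Its barcode column was therefore read, and 95 other barcode columns were not used. UMI counts of 25 of the 32 genes were whole in every library (tolerance 1e-06). Those of FDPS, CYP51A1, MSMO1, HSD17B7, SC5D, ACACA and FADS1 were not, so reads were shared with other genes and these levels are uncertain.

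Transcript counts were rounded. Spike-in RNA was left out. It made up 0.0124, 0.0087, 0.00829, 0.0075, 0.00596 and 0.00776% of gene reads at 0, 60, 120, 240, 600 and 720 min. Its share was thus highest in the unlit library, and whether the amount of RNA changed was not tested. Tests used edgeR 4.0.16 (R 4.3.3) on genes that reached 10 counts in 3 or more libraries (quasi-likelihood F test with robust estimation, TMM over the 6 complete libraries, the 480 min library scaled over the genes it lists). Genes were fitted on 7 libraries, or on 6 where missing at 480 min, with 5 or 4 residual degrees of freedom for the trend and 4 or 3 for the bend, and Benjamini-Hochberg adjustment ran over both sets of genes (threshold 0.05). Residual spread includes departure from the fitted shape and may be technical. Ratios of single libraries had a prior count of 2 and exact binomial 95% intervals, which, like the exact (Clopper-Pearson) intervals of shares, cover counting error only. Folds and their intervals use no prior. A 2-fold difference was counted, and a gene entered the background of genes compared, where either library had at least 50 counts.

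Members and lists were chosen with earlier results of these data known. Values at every time are given for called genes and for 9 genes whatever their test (the regulators, HMGCS1, SQLE, FASN and SCD); in other lists the 2 called genes of smallest adjusted p are described, and the remaining called and some uncalled genes there were named after their values were seen. Marker and stress genes served as description only. Alternatives were other counts (reads, UMIs), scalings, filters, time scales (log, rank), DESeq2 1.42.0, no robust estimation, and each library left out.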

Additional observations from a re-analysis of the deposited data

How the results depend on the processing

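No paired analysis was possible because there was 1 library at each time. The number of the 32 genes called in the trend was 6 (6.86% of all genes), and 1 to 7 with 1 library left out in turn. It was 1 without 600 min (1% of all genes), 2 without 60 or 120 min (2.09% and 2.62%) and 3 without 480 or 720 min (4.65% and 3.49%). Without the count filter it was 5 (4.99%), and on the log or rank time scale 4 (5.78% and 4.9%). By DESeq2 it was 9 (11.6%), and under the other scalings and counts 6 (6.16% to 6.91%). The number called in the bend was 9 (31.2% of all genes), and 1 to 11 with 1 library left out. It was 2 without 0 min (14.4% of all genes), 1 without 240 min (9.81%) and 11 without 600 or 720 min (32.1% and 29.5%). On the log time scale 12 were called (29% of all genes), with 2 of the 9 lost and 5 upward, and 12 on the rank scale (33.6%). The bend of INSIG1, -0.29 and not called, was 0.63 and called on the log time scale (adjusted p = 0.0359); the alternative measures curvature on another axis. Group medians of the ratios moved by less than the median counting error of their genes under read counts, UMI counts and both other scalings, but with read counts the 120 min medians were -0.19 for the fatty acid enzymes and -0.14 for the regulators. With UMI counts, which are not corrected for collisions, log2 ratios moved beyond counting error for FASN (-0.72) and FDPS (-0.51) at 240 min and for SCD at 240 and 720 min (-1.01 and -1.07), and with read counts for IDI1 at 720 min (-1.24). Other scalings moved the median of all genes by at most 0.05. Leaving out a library also removes a degree of freedom. Counts were fewest for FADS2 among the 32 genes, 13 to 49.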
